A study of Mus musculus with 6 samples.

Results

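Liver natural killer (NK) cells were compared for the genes that encode the enzymes of glycolysis and of the pentose phosphate pathway, with 33 gene symbols chosen by name for their textbook place in these pathways and without glucose or lactate transporters. They matched 34 of the 55414 rows of the deposited expression table. The symbol Aldoa has 2 rows, of which ENSMUSG00000114515.3 held at most 1.05 TPM in any library and was too low to test. All of the other 33 rows, 1 for each symbol, passed the filter on low counts.

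Glycolysis splits glucose into pyruvate in the cytosol and yields ATP without oxygen, and lactate dehydrogenase turns the pyruvate into lactate while restoring the NAD+ that the pathway needs. The pentose phosphate pathway branches off at glucose 6-phosphate: its oxidative arm makes NADPH, and its non-oxidative arm exchanges sugars between ribose 5-phosphate and glycolytic intermediates. Several steps are carried by isoenzymes from separate genes, which differ in regulation and in the tissues that use them, and lymphocytes use more glucose when they are activated. Metformin is a glucose-lowering drug known to inhibit complex I of the mitochondrial respiratory chain.

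Both groups came from wild-type (WT) mice and were taken on day 3. The 3 metformin libraries are from liver NK cells of mice treated with metformin at 200 mg/kg for 3 days, and the 3 PBS libraries are from liver NK cells of mice given phosphate-buffered saline. The comparison asks what the treatment did to the RNA of these cells. The sources used here give no age, sex, route of dosing or gate for isolating the cells. They also do not say whether each library is a different mouse, so the spread behind every p-value may be technical. In bulk RNA of this kind, fewer cells of a type and less RNA per cell cannot be told apart.

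The table held 22983788, 24266803 and 22152167 estimated reads for metformin 1, 2 and 3, against 27263681, 24838302 and 30161214 for PBS 1, 2 and 3. None of the 14 NK cell markers was at 0 in all libraries. The same held for every other marker list, hepatocytes and neutrophils included, so this does not tell which cells were sequenced. Ncr1, an activating NK receptor, averaged 1424 ± 147 CPM (reads of a gene scaled by library size with TMM factors) in metformin libraries and 1400.0 ± 62.8 CPM in PBS libraries (SD, n = 3 each). Metformin 3 stood apart: its mean correlation with the other libraries was 0.956, against 0.964 to 0.968 for the rest. Its relative expression also ran against gene length, with a Spearman correlation across genes of -0.42, against -0.11 and 0.13 in the other metformin libraries and 0.05 to 0.33 in the PBS libraries.

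The most abundant enzyme RNAs were those of lactate dehydrogenase, enolase, aldolase and pyruvate kinase. Levels between genes are given as TPM (transcript abundance corrected for gene length and scaled to a common total), averaged over all 6 libraries. Ldha (ENSMUSG00000063229.16), the lactate dehydrogenase A subunit, came first at 738 TPM with a range of 658 to 845 TPM. Eno1, the ubiquitous enolase, followed at 708 TPM, then the aldolase gene Aldoa at 519 TPM and the pyruvate kinase gene Pkm at 470.3 TPM. The transaldolase gene Taldo1 of the non-oxidative pentose phosphate arm stood at 334 TPM, next above Gapdh at 287 TPM. A mean of at least 100 TPM was reached by 14 of the 34 rows, and 11 rows were under 10 TPM. Of the 33 pairs of neighbours in the order of mean level, 4 had ranges over the 6 libraries that did not overlap, namely Eno1 above Aldoa, Gpi1 above Tkt, Pgam1 above Pgd and Ldhb above Hk3. The remaining neighbours did not differ beyond their spread.

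**Figure D1:**
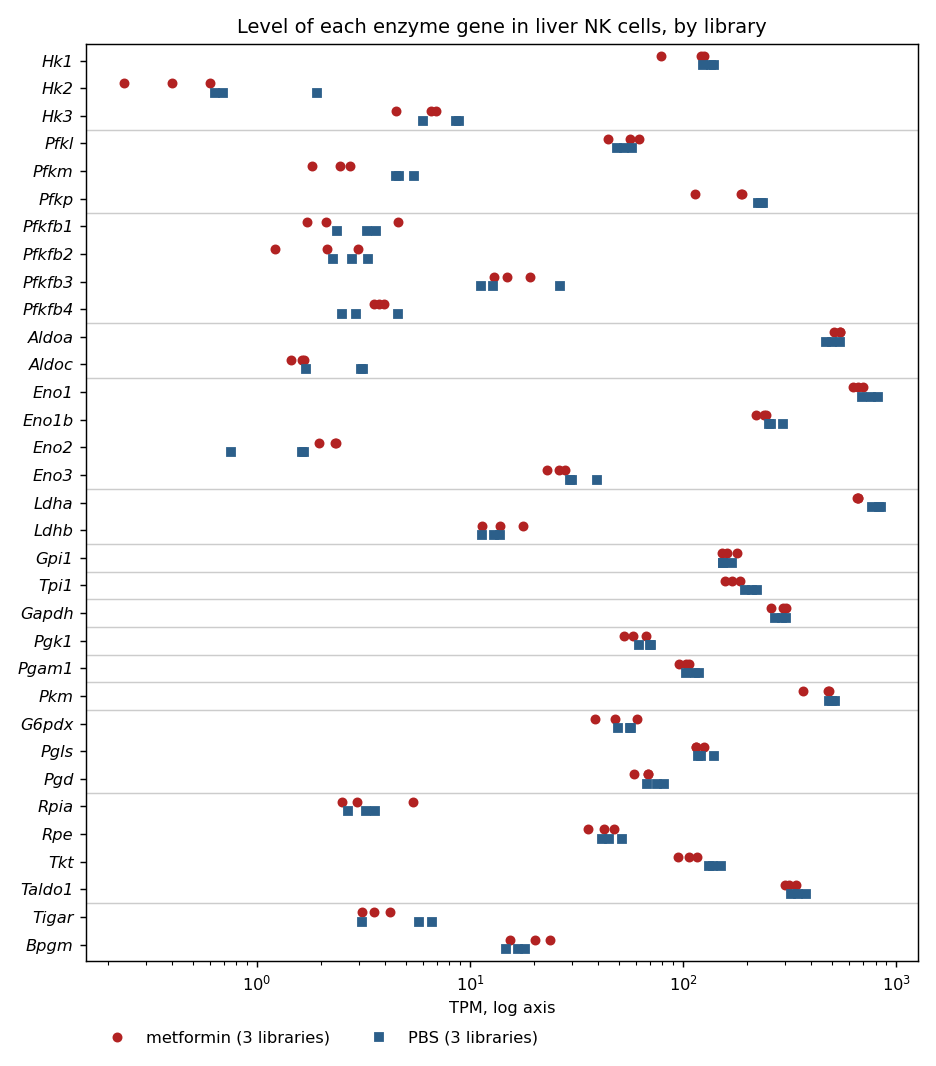
Level of the 33 tested enzyme genes in liver NK cells, in TPM on a log axis. Red circles are the 3 metformin libraries and blue squares the 3 PBS libraries, and grey lines separate steps of the pathway. Ldha, Eno1, Aldoa and Pkm lie at the right, at or above 364 TPM in every library, while Hk2, Eno2 and Aldoc are at or below 3.16 TPM in every library.

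One isoform made up most of the RNA at each step that has several. Shares are percentages of the TPM summed over a step's genes, as means over the 6 libraries. Hk1, the hexokinase of most tissues, held 94.0% of the hexokinase TPM, against 5.40% for Hk3, known from myeloid cells, and 0.56% for Hk2, the insulin- and HIF-1-responsive form. Aldoa held 99.6% of aldolase TPM, leaving 0.41% to the brain form Aldoc, and Ldha held 98.2% of lactate dehydrogenase TPM, leaving 1.83% to Ldhb, the heart-type subunit. Among the bifunctional enzymes that make and break the phosphofructokinase activator fructose 2,6-bisphosphate, Pfkfb3, the form with high kinase activity, held 63.3%, with a range of 53.3% to 74.1%.

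Enolase was split between Eno1, at 71.4%, and Eno1b, at 25.4%. Eno1b is a near-identical copy of Eno1, so reads could have been assigned to either gene, and their separate levels are uncertain. Together they held 96.9%, while the muscle form Eno3 held 2.96% and the neuronal form Eno2 0.18%. The whole enolase step averaged 991 TPM, above lactate dehydrogenase at 751 TPM. The first place of Ldha among single genes may thus depend on how the Eno1 and Eno1b reads were split. Copies also took 19.0% to 21.7% of the estimated reads of Pgam1 and its copies, and 23.1% to 34.1% of those of Pgk1 and its copies. The levels of these genes carry that uncertainty as well.

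Phosphofructokinase-1 (PFK-1), the committed step of glycolysis, was the family whose leading isoform had the widest difference in share over all 6 libraries, though not without PBS 3 or without metformin 2, where Pfkfb3 differed more. Its platelet-type gene Pfkp (ENSMUSG00000021196.15) held 76.2%, 74.5% and 71.0% of PFK-1 TPM in metformin 1, 2 and 3, against 81.7%, 79.4% and 79.0% in PBS 1, 2 and 3. Every metformin library was below every PBS library. The means were 73.9 ± 2.63% and 80.0 ± 1.45% (SD, n = 3 each), a difference of -6.12 percentage points (two-sided exact permutation p = 0.1, which is the lower limit of this test for groups of 3; 0.2 after Benjamini-Hochberg adjustment over the 6 leading isoforms tested). Without metformin 3 the difference was -4.68 points. The liver-type gene Pfkl took the counterpart, 25.0 ± 2.57% in metformin and 18.3 ± 1.42% in PBS libraries, and the muscle-type gene Pfkm (ENSMUSG00000033065.15) held 1.07 ± 0.07% and 1.68 ± 0.22%. Neither pair of groups overlapped. Measured as CPM per kilobase of the listed gene length in place of TPM, Pfkp held 53.9% in metformin and 61.0% in PBS libraries, so it led Pfkl (43.8% and 35.3%) on this scale too, by less. This scale does not remove a trend on gene length that differs between libraries. Pfkp is listed at 8681 bases and Pfkl at 3730, and the share without that trend was not computed.

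The upstream sequences of the PFK-1 genes and of Ldha are shown because the groups did not overlap in the shares of the 3 PFK-1 genes, and because Ldha, the enzyme gene with the highest mean TPM, had groups apart in TPM. Other enzyme genes, Tpi1 and Tkt among them, were also apart in TPM and are not shown. Each is the 250 bases before the first listed RefSeq start on GRCm38.p6, given 5′ to 3′ on the gene's own strand. Capitals mark the motif ACGTG, a form of the core of the sites bound by hypoxia-inducible factors, found on either strand with overlapping matches merged. The other form of that core, GCGTG, was not searched for or marked, and it occurs in the Pfkp and Pfkl windows. CACGTG, which holds ACGTG on both strands, is also an E-box that MYC and other factors are known to bind. The windows are chr13:6648772-6649021 (minus strand) for Pfkp, chr10:78009808-78010057 (minus strand) for Pfkl, chr15:98092339-98092588 (plus strand) for Pfkm and chr7:46845554-46845803 (plus strand) for Ldha.
Pfkp: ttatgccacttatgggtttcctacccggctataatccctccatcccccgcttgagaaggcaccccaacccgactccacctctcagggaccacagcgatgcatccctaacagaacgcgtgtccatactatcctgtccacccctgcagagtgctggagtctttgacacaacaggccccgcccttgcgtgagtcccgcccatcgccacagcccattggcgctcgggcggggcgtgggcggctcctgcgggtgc
Pfkl: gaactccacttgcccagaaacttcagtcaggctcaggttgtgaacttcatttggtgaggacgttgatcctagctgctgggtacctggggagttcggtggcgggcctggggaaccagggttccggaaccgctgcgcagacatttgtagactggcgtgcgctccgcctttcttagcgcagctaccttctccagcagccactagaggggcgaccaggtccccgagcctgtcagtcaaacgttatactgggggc
Pfkm: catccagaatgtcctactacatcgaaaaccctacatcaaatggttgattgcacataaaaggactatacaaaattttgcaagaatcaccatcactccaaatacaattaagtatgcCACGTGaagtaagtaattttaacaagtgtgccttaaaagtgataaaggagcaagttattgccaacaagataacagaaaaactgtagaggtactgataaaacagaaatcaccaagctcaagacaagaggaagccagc
Ldha: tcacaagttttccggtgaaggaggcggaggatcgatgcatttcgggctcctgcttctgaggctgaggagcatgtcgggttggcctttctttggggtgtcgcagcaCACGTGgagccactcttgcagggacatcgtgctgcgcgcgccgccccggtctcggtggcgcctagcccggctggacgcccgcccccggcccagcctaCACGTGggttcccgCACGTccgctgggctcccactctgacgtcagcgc

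The Ldha window held the motif in 3 places, 145, 48 and 34 bases before the start, and 2 of them read CACGTG. The Pfkm window held 1 place, a CACGTG that begins 136 bases before the start, while the windows of Pfkp and Pfkl held 0 places with ACGTG. Among all 27025 genes with RefSeq windows of this length, 18.5% had the motif in at least 1 window. It was found for 10 of the 32 enzyme genes with a window (31.2%). Eno1b had no window in the table used. Of the other enzyme genes lower in TPM without overlap, Hk2 held 2 places, while Tpi1, Tkt, Eno3 and Aldoc held 0. Counted by window, the motif was in 14 of 50 enzyme windows (28%) and in 16.6% of all 32851 windows. Pfkm has 4 listed starts and Ldha 2, and which of them these cells used was not measured. Pfkm window 2 held 1 place, not a CACGTG, and Pfkm windows 3 and 4 and Ldha window 2 held 0.

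**Figure D2:**
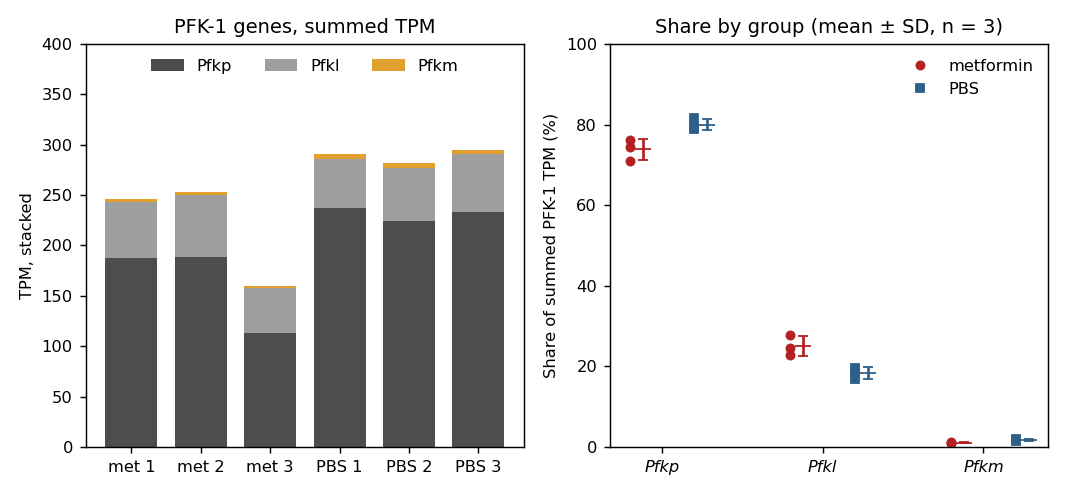
PFK-1 genes by library. Left, TPM of Pfkp, Pfkl and Pfkm stacked for each metformin (met) and PBS library; right, the share of each gene in that sum, with points for libraries and bars for the mean and SD of 3 libraries. The 3 metformin libraries hold 71.0% to 76.2% Pfkp, below the 79.0% to 81.7% of the PBS libraries, and metformin 3 has the lowest sum, 159.8 TPM.

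Over all 6 libraries, the shares of the other 5 leading isoforms differed by under 2 percentage points. Hk1 held 94.4% in metformin and 93.7% in PBS libraries (two-sided exact permutation p = 0.3, adjusted 0.45), and Pfkfb3 held 64.3% and 62.4% (two-sided exact permutation p = 1, adjusted 1). The Pfkfb3 difference of 1.86 points was set by single libraries: it was 7.34 without metformin 2, 7.70 without PBS 3 and below 0 without any 1 of the other 4. For Eno1 the shares were 71.5% and 71.4% (two-sided exact permutation p = 1, adjusted 1), and for Eno1 and Eno1b together 97.0% and 96.8%. The groups did not overlap for Aldoa, at 99.7% in metformin and 99.5% in PBS libraries, nor for Ldha, at 97.9% and 98.5% (two-sided exact permutation p = 0.1 and adjusted 0.2 for each). Without metformin 3 the Ldha difference of -0.59 points was -0.34. The Ldhb share was thus 2.12 ± 0.47% in metformin libraries, against 1.54 ± 0.16% in PBS libraries.

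For metformin against PBS, edgeR's quasi-likelihood test called 0 of the 33 enzyme genes at an adjusted p under 0.05 over all 15527 genes tested, beside 0 of all genes (0.00%). The smallest adjusted p of an enzyme gene was 0.276, for Pfkm. At an unadjusted p under 0.05 there were 3 enzyme genes lower with metformin, Pfkm, Pfkp and Tkt, beside 5.08% of all genes, and 0 higher, beside 5.29% of all genes (10.4% in both directions together). A fold change below 0 was seen for 19 of 33, beside 49.1% of all genes, and the median log2 fold change was -0.06, beside 0.0053 over all genes tested. The glycolytic steps and the pentose phosphate arms had medians of -0.06 over 24 genes and -0.04 over 7 genes. In CPM the groups did not overlap for 3 enzyme genes that were lower with metformin (9.63% of all genes) and for 2 that were higher, Aldoa and Pgls (9.49% of all genes).

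The intervals limit how large a difference could have been missed only as far as the spread between these libraries, which may be technical, reflects that between mice. Of the 19 enzyme genes with a mean of at least 40 TPM, 18 had a 95% interval of the fold change that lay within 1.5-fold in either direction, Pfkp being the exception. The low genes were measured less closely, with intervals on the log2 scale of -1.80 to 0.11 for Hk2 and -0.21 to 1.73 for Eno2.

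**Figure D3:**
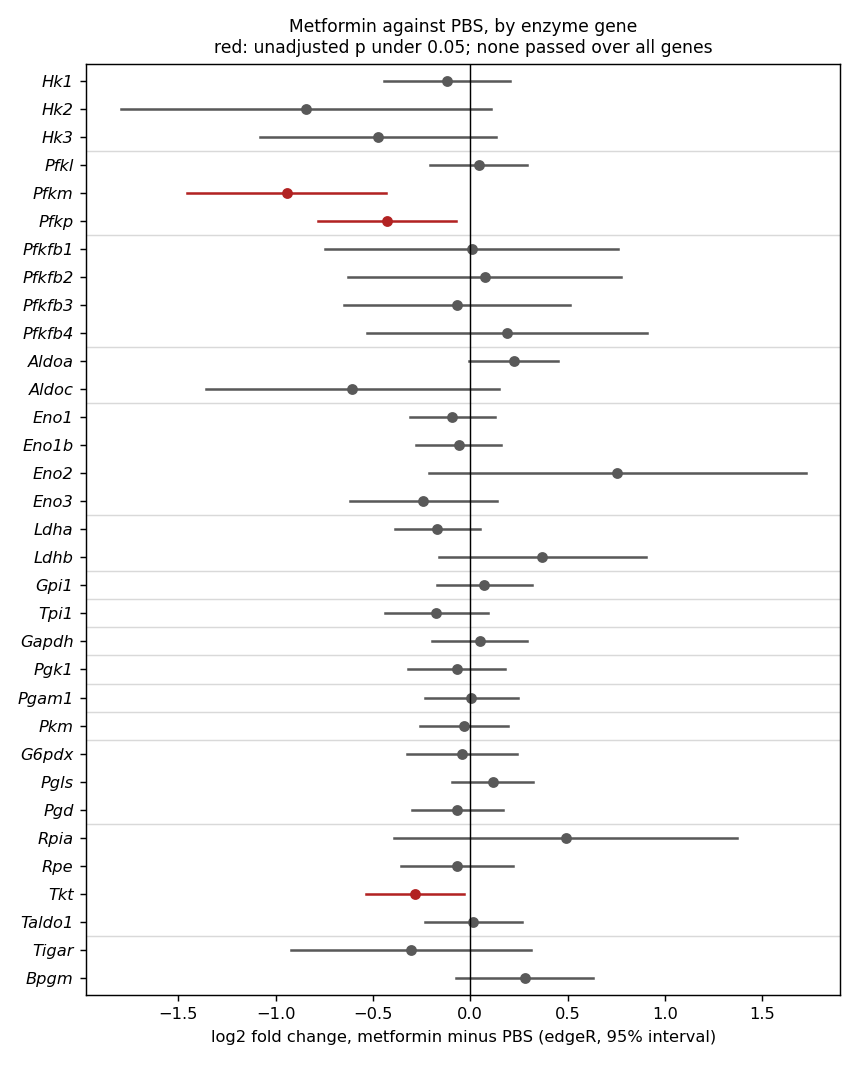
Log2 fold change, metformin minus PBS, of the 33 tested enzyme genes by edgeR, with lines for the 95% interval, grouped by step. Red marks Pfkm, Pfkp and Tkt, which had an unadjusted p under 0.05; none passed after adjustment over all genes.

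Pfkm, a minor part of the PFK-1 RNA, had the smallest p of the enzymes. It read 5.12, 5.38 and 3.99 CPM in metformin 1, 2 and 3, against 9.06, 10.5 and 8.31 CPM in PBS 1, 2 and 3. Every metformin library was below every PBS library. The means were 4.83 ± 0.74 CPM and 9.29 ± 1.12 CPM (SD, n = 3 each), a log2 fold change of -0.94 (SE 0.22, 95% interval -1.45 to -0.43, edgeR unadjusted p = 0.0028, adjusted p = 0.276). These levels rest on 91 to 129 reads per metformin library and 246 to 256 reads per PBS library. DESeq2 called Pfkm, and no other enzyme gene (adjusted p = 0.014; it called 1.93% of all genes, 0.979% as lower), while limma-voom did not (adjusted p = 0.279, or 0.143 with sample quality weights, where it called 0.00% and 0.232% of all genes).

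Pfkp, the most abundant PFK-1 gene, had the largest listed gene length of the 33, at 8681 bases. It read 403, 373 and 263 CPM in metformin 1, 2 and 3, against 475, 453 and 470.4 CPM in PBS 1, 2 and 3. All metformin libraries lay below all PBS libraries, with metformin 3 lowest. The means were 347 ± 73.7 CPM and 466 ± 11.9 CPM (SD, n = 3 each), a log2 fold change of -0.43 (SE 0.15, edgeR unadjusted p = 0.024, adjusted p = 0.435). Without metformin 3 it was -0.27, over 1.5 times smaller, and with the trend on gene length removed it was -0.30. Pfkp was no longer at an edgeR unadjusted p under 0.05 without PBS 1 or without PBS 3. Pfkl gave 129, 125 and 105 CPM in the metformin libraries and 114, 123 and 111 CPM in the PBS libraries, which overlap (log2 fold change 0.04, 95% interval -0.20 to 0.29). The share of PFK-1 RNA from Pfkl was thus higher with metformin while its own level was not separated.

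At the first step, Hk1 read 309, 289 and 213 CPM in metformin 1, 2 and 3, against 283, 299 and 300.0 CPM in PBS 1, 2 and 3. Only metformin 3 was below the PBS range. The log2 fold change was -0.12 (SE 0.14, edgeR adjusted p = 0.773) and was 0.02 without metformin 3. Hk2 was near the limit of measurement at 2.50, 1.59 and 1.05 CPM in the metformin libraries and 2.72, 4.10 and 2.41 CPM in the PBS libraries, ranges that overlap (log2 fold change -0.84, SE 0.41, edgeR adjusted p = 0.516). Hk3 averaged 10.7 ± 3.35 CPM with metformin and 14.8 ± 2.77 CPM with PBS (log2 fold change -0.47, edgeR adjusted p = 0.557). The summed neutrophil markers, from cells known to use Hk3, were 15.0 to 49.3 CPM in metformin and 22.6 to 164 CPM in PBS libraries. PBS 1 was highest and metformin 3 lowest in both. Between them the order differed. PBS 3 read 15.0 CPM for Hk3 with a marker sum of 22.6 CPM, and metformin 1 read 10.8 CPM with 49.3 CPM. The summed markers of monocytes, macrophages and Kupffer cells, also myeloid, ran otherwise. They were highest in metformin 3, at 703 CPM, and lowest in PBS 1, at 240 CPM, with 255 to 406 CPM in the others. The part of these cells or of neutrophils in the Hk3 values was not tested.

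The bifunctional enzyme gene Pfkfb3 varied widely between PBS libraries. It read 44.1, 37.3 and 39.2 CPM in metformin 1, 2 and 3, against 30.5, 34.0 and 61.9 CPM in PBS 1, 2 and 3, so the metformin libraries fell between the PBS values (log2 fold change -0.07, 95% interval -0.65 to 0.51). Without PBS 3 the log2 fold change was 0.31 (edgeR adjusted p = 0.612). The other members of that family, Pfkfb1, Pfkfb2 and Pfkfb4, averaged 2.12 to 7.33 CPM in either group, and their groups overlapped.

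Aldoa, which splits fructose 1,6-bisphosphate, was the abundant gene with the largest log2 fold change above 0. It read 466, 465 and 521 CPM in metformin 1, 2 and 3, against 392, 452 and 400.3 CPM in PBS 1, 2 and 3. The groups did not overlap, but the gap between metformin 2 and PBS 2 was small. The means were 484 ± 31.8 CPM and 415 ± 32.4 CPM (SD, n = 3 each; log2 fold change 0.22, SE 0.10, edgeR unadjusted p = 0.056, adjusted p = 0.485). With the trend on gene length removed the log2 fold change was 0.11. In TPM the groups overlapped, at 512 to 545 TPM with metformin and 468 to 544 TPM with PBS. Gpi1, which converts glucose 6-phosphate to fructose 6-phosphate, read 242, 220.5 and 261 CPM in the metformin libraries and 239, 241 and 208 CPM in the PBS libraries, which overlap (log2 fold change 0.07, 95% interval -0.17 to 0.32).

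The middle steps showed overlapping groups. Tpi1, the triose phosphate isomerase, read 164, 167 and 200.2 CPM in the metformin libraries and 206, 213 and 182 CPM in the PBS libraries. Metformin 3 lay inside the PBS range and the other 2 metformin libraries below it (log2 fold change -0.17, 95% interval -0.44 to 0.09). Without metformin 3 it was -0.28. Gapdh, which makes the NADH of glycolysis and often serves as a loading control, read 204, 228 and 243 CPM with metformin and 210.2, 238 and 204 CPM with PBS, a log2 fold change of 0.05 (95% interval -0.20 to 0.29). Pgk1, the first ATP-yielding step, read 72.1, 79.6 and 70.2 CPM with metformin and 82.9, 80.5 and 69.5 CPM with PBS. Pgam1, the phosphoglycerate mutase, read 111, 117 and 127 CPM with metformin and 123, 124 and 106 CPM with PBS. Neither gene separated the groups (log2 fold changes -0.07 and 0.01).

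For the enolases, Eno1 read 843, 843 and 844 CPM in metformin 1, 2 and 3, against 827, 984 and 885 CPM in PBS 1, 2 and 3. The metformin libraries were nearly equal and lay within the PBS range (log2 fold change -0.09, SE 0.09, edgeR adjusted p = 0.743). Its copy Eno1b read 279.7, 270.4 and 269.7 CPM with metformin and 274, 313 and 268 CPM with PBS (log2 fold change -0.06). Pkm, which yields pyruvate and ATP, read 740.3, 731 and 629 CPM with metformin and 702, 751 and 696 CPM with PBS, with metformin 3 the lowest of the 6 (log2 fold change -0.03, 95% interval -0.26 to 0.19). The gene totals do not separate the PKM1 and PKM2 splice forms.

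Ldha read 684, 650.4 and 720.0 CPM in metformin 1, 2 and 3, against 804, 799 and 708 CPM in PBS 1, 2 and 3. Metformin 3 was above PBS 3, so the groups overlapped on this scale (log2 fold change -0.17, SE 0.09, edgeR unadjusted p = 0.111, adjusted p = 0.558). On the TPM scale they did not overlap, at 659, 664 and 658 TPM with metformin and 831, 845 and 770.3 TPM with PBS. Ldhb averaged 11.4 ± 3.00 CPM with metformin and 8.82 ± 0.80 CPM with PBS, with overlapping libraries.

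In the oxidative pentose phosphate arm, the groups of G6pdx, the entry enzyme, overlapped at 88.7, 97.3 and 72.2 CPM in metformin 1, 2 and 3, against 87.0, 90.9 and 88.3 CPM in PBS 1, 2 and 3 (log2 fold change -0.04, 95% interval -0.33 to 0.24). Pgd, which makes the second NADPH, also overlapped, with 104, 98.3 and 93.2 CPM in the metformin libraries and 95.6, 112 and 102 CPM in the PBS libraries. The lactonase Pgls averaged 61.4 ± 0.76 CPM with metformin and 56.8 ± 2.44 CPM with PBS; its groups did not overlap in CPM but overlapped in TPM (log2 fold change 0.11, SE 0.09, edgeR adjusted p = 0.666).

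In the non-oxidative arm, Tkt (ENSMUSG00000021957.8), the transketolase that links pentoses to glycolysis, was the third enzyme gene at an unadjusted p under 0.05. It read 169, 147 and 145 CPM in metformin 1, 2 and 3, against 185, 205 and 170.4 CPM in PBS 1, 2 and 3. The groups did not overlap, but metformin 1 and PBS 3 nearly met. The means were 154 ± 13.2 CPM and 187 ± 17.5 CPM (SD, n = 3 each; log2 fold change -0.28, SE 0.11, edgeR unadjusted p = 0.032, adjusted p = 0.458). Tkt was no longer under that threshold with upper quartile factors or without metformin 2, PBS 1 or PBS 2. Taldo1, the transaldolase that works beside it, read 227, 223 and 266 CPM with metformin and 224, 256 and 229 CPM with PBS, which overlap (log2 fold change 0.02, 95% interval -0.23 to 0.26). Rpe and Rpia, which interconvert pentose phosphates, had log2 fold changes of -0.07 and 0.49, and their groups overlapped; Rpia was below 10 CPM in every library.

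The remaining members were Tigar, a fructose 2,6-bisphosphatase, Bpgm, which makes 2,3-bisphosphoglycerate in red cells, Aldoc, Eno2 and Eno3. Their log2 fold changes ran from -0.61 for Aldoc to 0.76 for Eno2, and the edgeR adjusted p-values from 0.549 to 0.703. In each the groups overlapped in CPM. The erythroid marker sum, a list that includes Bpgm itself, was 86.8 to 191 CPM in metformin and 84.2 to 163 CPM in PBS libraries.

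**Figure D4:**
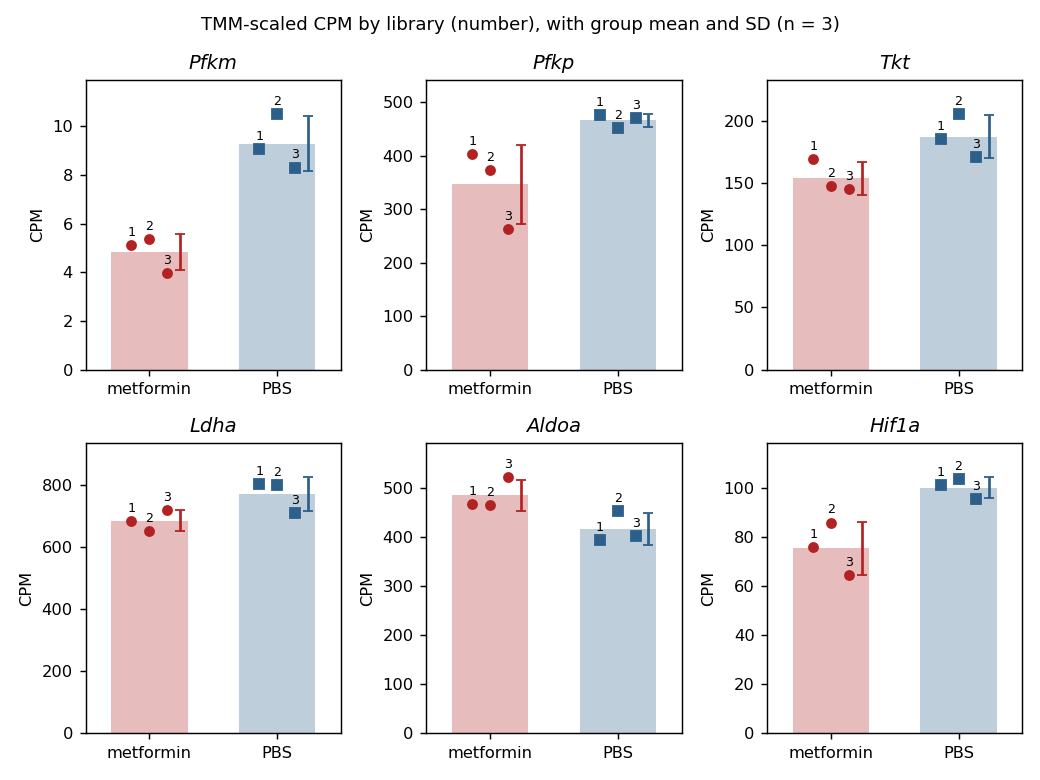
TMM-scaled CPM of Pfkm, Pfkp, Tkt, Ldha, Aldoa and the regulator Hif1a. Points are libraries with their replicate number, bars start at 0 and show the group mean of 3 libraries, and error bars show the SD. Metformin libraries lie below all PBS libraries for Pfkm, Pfkp, Tkt and Hif1a and above them for Aldoa, while Ldha overlaps.

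The separation of the enzyme genes as a whole was wider in TPM than in counts. The 34 rows summed to 4457, 4621 and 4242 TPM in metformin 1, 2 and 3, against 4830, 5265 and 4913 TPM in PBS 1, 2 and 3, so the groups did not overlap. As a share of all estimated counts they took 0.546%, 0.531% and 0.545% with metformin and 0.555%, 0.587% and 0.550% with PBS, which differ less but also do not overlap. Counted gene by gene in TPM, 9 enzyme genes were lower with metformin without overlap (Ldha, Eno1b, Pfkp, Tpi1, Tkt, Eno3, Pfkm, Aldoc and Hk2) and 1 was higher, Eno2. The same held for 15.2% and 4.82% of all genes tested, so lower TPM without overlap was also the more frequent direction across the table.

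Other genes of carbohydrate metabolism were counted in the same way. Of 45 tested enzymes of glycogen, galactose, fructose, gluconeogenic and related steps, edgeR called 0 at an adjusted p under 0.05, and at an unadjusted p under 0.05 there were 2 higher and 2 lower, beside 5.29% and 5.08% of all genes. Pygl, the liver-type glycogen phosphorylase, read 61.9, 67.2 and 63.2 CPM with metformin and 43.7, 53.2 and 50.8 CPM with PBS, without overlap (log2 fold change 0.38, SE 0.11, edgeR adjusted p = 0.338). Pck1, a gluconeogenic enzyme abundant in hepatocytes, read 13.0, 12.7 and 42.7 CPM with metformin and 10.7, 4.68 and 12.0 CPM with PBS, without overlap. Its log2 fold change of 1.32 (edgeR adjusted p = 0.466) became 0.49 without metformin 3. In that library the summed hepatocyte markers, a list that holds Pck1, stood at 921 CPM. They were 369 and 365 CPM in metformin 1 and 2, and 507, 309 and 391 CPM in PBS 1, 2 and 3. The part of hepatocytes in the Pck1 values was not tested. Gpd2, the mitochondrial glycerol 3-phosphate dehydrogenase, averaged 108 ± 7.07 CPM with metformin and 125 ± 2.06 CPM with PBS (log2 fold change -0.21, edgeR adjusted p = 0.478), and its log2 fold change was -0.07 with the trend on gene length removed. Pklr, the liver and red-cell pyruvate kinase, stayed at or below 2.69 CPM.

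Among 27 tested regulators of glycolysis, edgeR called 0, and at an unadjusted p under 0.05 there were 1 higher and 2 lower, beside 5.29% and 5.08% of all genes. Hif1a, the oxygen-regulated transcription factor subunit that is known to drive many glycolytic genes, read 75.9, 85.9 and 64.3 CPM with metformin and 101, 104 and 95.4 CPM with PBS, without overlap (log2 fold change -0.41, SE 0.12, edgeR adjusted p = 0.359). Cux1 was lower (log2 fold change -0.28, or -0.17 with the trend on gene length removed; edgeR adjusted p = 0.459) and Mlxip, a glucose-sensing transcription factor, was higher (log2 fold change 0.41, edgeR adjusted p = 0.311; DESeq2 adjusted p = 0.045). Myc, another activator of glycolytic genes, read 84.9, 93.9 and 85.1 CPM with metformin and 94.8, 69.7 and 66.0 CPM with PBS, which overlap (log2 fold change 0.20, edgeR adjusted p = 0.656; 0.09 to 0.36 with 1 PBS library left out).

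A list of 25 tested hypoxia-responsive genes that are not glycolytic enzymes also had 0 calls by edgeR, with 2 higher and 2 lower at an unadjusted p under 0.05, beside 5.29% and 5.08% of all genes. Ndrg1 and Ero1a were lower with metformin, with log2 fold changes of -0.44 and -0.34; without metformin 3 that of Ero1a was -0.21. Mif and Fam162a were higher, at 0.35 and 0.38, but at -0.01 and 0.08 once the trend on gene length was removed. The median log2 fold changes of the 45 other enzymes, the regulators and the hypoxia-responsive genes were -0.03, -0.05 and 0.08, beside 0.0053 over all genes.

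Marker sums of other kinds also stood apart between the groups. The 25 summed cell cycle markers were 911 to 1115 CPM in metformin libraries, against 1205 to 1778 CPM in PBS libraries. The 12 T cell markers summed to 1344 to 1636 CPM against 826 to 970 CPM, and the 8 markers of liver type 1 innate lymphoid cells (ILC1), resident relatives of NK cells, to 1435 to 1506 CPM against 907 to 1024 CPM. None of these pairs of groups overlapped (two-sided exact permutation p = 0.1 for each, adjusted 0.333 over 10 lists). The lists were chosen with earlier results of these data known, so these p-values are no independent check. The 14 NK cell markers summed to 24994 to 28555 CPM with metformin and 23472 to 25801 CPM with PBS (two-sided exact permutation p = 0.2, adjusted 0.4). No marker of these 4 lists was at 0 in all libraries, and their part in the enzyme values was not tested. The other lists covered B cells, monocytes with macrophages and Kupffer cells, neutrophils, hepatocytes, erythroid cells and endothelial cells. Their groups overlapped (two-sided exact permutation p from 0.2 to 0.8). No marker found of those lists was at 0 in all libraries either.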

How the data were processed

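RNA of liver NK cells was sequenced in 6 libraries, 3 from metformin-treated and 3 from PBS-treated mice, made with SMART-seq mRNA chemistry per the labels' protocols. The submitters' processing notes list DRAGEN without a version, and GRCm39 and mm10 without saying what each was used for. The authors deposited 1 table with estimated counts per gene, which are not all whole and not normalized, and TPM values, which the authors scaled to a common total and which keep no depth. Counts were whole in all libraries, within 0.005, for 17 of the 34 enzyme rows. The handling of strand and of reads shared by near-identical genes is not stated in the labels. All value columns were matched to a sample, with 0 left over.

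Estimated counts were rounded and tested with edgeR 4.0.16 (TMM, filterByExpr, glmQLFit and glmQLFTest, no covariate) in R 4.3.3. Adjusted p-values follow Benjamini and Hochberg over the 15527 genes tested, with a threshold of 0.05, and the common biological coefficient of variation was 27.3%. Log2 fold changes are metformin minus PBS, and CPM were scaled with the TMM factors. DESeq2 1.42.0 and limma 3.58.1 (voom, also with sample quality weights; trend on log2(TPM + 1)), other normalizations and filters, a lowess offset on gene length (span 0.3), the replicate number as a block and each library left out were alternatives. Shares and marker sums were compared by two-sided exact permutation tests. No 2 libraries of a group were alike within sampling noise (chi-square divided by its degrees of freedom 14.8 to 63.9), so none was merged. Enzyme genes were all accounted for, and shown in every library where the unadjusted p was under 0.05, where they lead an isoform family or are the only gene of a step, and for 8 more fixed by name; from each other list, up to 3 per direction with the smallest p under 0.05, with Hif1a and Myc, were eligible. The enzyme genes and lists were chosen with earlier results of these data known. Values of Pgls, Pfkl, Hk3, Ldhb and the low isoforms are given for completeness. The table's own coordinates match GRCm38 for 0 of the 34 rows and are not printed; sequences are from RefSeq on GRCm38.p6, matched by symbol for 32 of 33 genes. PCR copies cannot be told from molecules, so intervals do not cover that source of error.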

Additional observations from a re-analysis of the deposited data

How the results depend on the processing

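Across 18 other fits fixed with the design, Pfkm, Pfkp, Tkt, Ldha, Tpi1, Hk2, Eno1, Pgk1, Pgd, Aldoa, Gpi1 and Hif1a kept the direction of their log2 fold change, wherever they were tested. Pfkm ran from -1.03 to -0.82, with edgeR, DESeq2 or limma adjusted p-values of 0.014 to 0.705, and passed with DESeq2 alone. Aldoa, the single enzyme gene higher at an unadjusted p under 0.05 with DESeq2 (1), upper quartile factors (1), library size only (1), the 5 CPM filter (1) and protein-coding genes (1), ran from 0.09 to 0.29. Over all genes, DESeq2 called 299, limma-voom with quality weights 36, edgeR without a filter 1 and with the gene length trend removed 1; DESeq2 called 1 enzyme gene. Enzyme genes lower at an unadjusted p under 0.05 numbered 5 with quality weights, 5 in TPM (adding Ldha and Tpi1 in both) and 6 with the length trend removed (adding Eno3), beside 6.56%, 7.72% and 5.47% of all genes. In TPM the median of the enzyme genes was -0.19, beside -0.08 over all genes. At an unadjusted p under 0.05 edgeR had 1610 genes, DESeq2 1748 and limma-voom 1679.

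Leaving out 1 library at a time gave 0 to 1 genes called, 0 to 1 enzyme genes higher and 1 to 5 lower at an unadjusted p under 0.05, with a median of -0.08 to -0.0016. The count of 1 lower was without PBS 1, where Pfkm alone was left, and the 5 were without metformin 1 (with Hk2 and Tigar) or metformin 3 (with Ldha and Tpi1). All genes moved too: 2.90% were lower without PBS 1, 4.92% without metformin 1 and 6.51% without metformin 3. The Pfkp share difference stayed between -7.26 and -4.68 points. Log2 fold changes near 0 crossed it: Hk1 -0.23 to 0.018, Pfkfb3 -0.27 to 0.31, Gapdh -0.017 to 0.12, Pgam1 -0.066 to 0.046, Pkm -0.081 to 0.032, G6pdx -0.14 to 0.062, Taldo1 -0.075 to 0.077 and Eno1b -0.11 to 0.012. Share differences did so for Pfkfb3 (-1.53 to 7.70 points) and Eno1 (-0.22 to 0.23), and per kilobase they were -1.75 and -0.25 points.

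Further changes of sign were with quality weights Pfkfb3 0.045, Gapdh -0.013, Pgam1 -0.044, Pkm 0.013, G6pdx 0.030 and Taldo1 -0.056, with upper quartile factors Pkm 0.011, and without a filter Pgam1 -0.010 and Taldo1 -0.00012. In TPM they were Gapdh -0.017, Pgam1 -0.14 and Taldo1 -0.13, and with the length trend removed Pfkfb3 0.051, Pgam1 -0.085, Taldo1 -0.12 and Mif -0.012. The cause was not tested.

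The replicate numbers do not pair the samples by the labels, and deviations of same-numbered libraries correlated at 0.17, 0.08 and 0.17, with 5 of 6 samples closest to their own number. With the replicate number as a block edgeR called 3 genes and 0 enzyme genes, Tkt was no longer under an unadjusted p of 0.05, and Pfkfb3 had a log2 fold change of 0.0011. With 3 libraries a group, genes under 10 TPM had wide intervals, and a p that misses the threshold does not show equal levels.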
